A study of Mus musculus with 23 samples.

Results

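Potassium channel genes were taken as every gene name in the RNA-seq tables that begins with Kcn, apart from the non-coding RNA Kcnq1ot1, and 94 of the 23369 gene names met this rule. They encode pore-forming subunits, subunits that modify a channel without forming one of their own, auxiliary subunits and a few regulators. Expression had been measured in mouse embryonic stem cells (ESCs), the self-renewing cells of the early embryo, of the single line MS12 Kdm2b fl/fl. In this line loxP sites flank the Kdm2b exon for the greater part of the ZF-CxxC domain, and tamoxifen switches on a Cre recombinase that removes it. KDM2B is a histone demethylase family protein that binds non-methylated CpG dinucleotides through that domain and is a subunit of a variant polycomb repressive complex. All 6 samples carried the floxed allele and were grown on inactivated mouse embryonic fibroblasts with leukaemia inhibitory factor, then settled overnight without these feeder cells. The 3 samples labelled untreated received no drug, and the 3 labelled treated were kept in 800 nM 4-hydroxytamoxifen for 72 hr. The comparison asks which genes differ once tamoxifen has been given and the KDM2B ZF-CxxC domain removed. No sample without the floxed allele received the drug, so effects of the drug, of Cre and of the lost domain cannot be told apart.

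The names of the deposited files contradict the sample labels for all 6 samples, with files named for 72 hr attached to samples labelled untreated and the reverse. Groups follow the labels throughout, and under the other reading every difference below changes sign with its size and p-value unchanged. The targeted gene did not settle this, since Kdm2b was at 26.95, 21.5 and 27.7 FPKM in the libraries labelled untreated and at 19.9, 21.9 and 25.04 FPKM in those labelled tamoxifen, and a value over the whole gene does not resolve the floxed exon. FPKM is fragments mapped per kilobase of transcript, scaled to the size of the library. From the steps that single fragments leave in low values, 1 FPKM corresponded to about 16.6 to 25.1 fragments per kilobase, so a gene near 0.1 FPKM rests on very few. The ESC markers fixed for the label check were all measured, with Pou5f1 at 369 to 832 FPKM, and none of the 16 feeder fibroblast markers was at 0 in all samples. The fibroblast markers summed to 184 to 441 FPKM in the untreated samples and to 270 to 320 FPKM in the tamoxifen samples, and 0 of the 15 tested passed the test in limma with the replicate block explained below. In bulk samples, fewer cells of a type and less RNA per cell cannot be told apart.

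Potassium channels let potassium ions leave or enter a cell down their electrochemical gradient and so set the resting membrane potential and end action potentials. Voltage-gated channels open on depolarisation, inward rectifiers pass current mainly into the cell, calcium-activated channels open when intracellular calcium rises, and K2P channels, whose subunits each hold tandem pore domains, leak potassium at rest. Beta subunits, KChIP proteins and KCNE proteins bind the pore-forming subunits and change their gating or their delivery to the membrane. Many of these genes are best known from neurons, muscle and epithelia, where they shape excitability and salt transport.

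Because the ZF-CxxC domain reads CpG dinucleotides, promoters of 2 genes on which the results turn are shown first: Kcnh1, which was lower in the tamoxifen samples with the replicate block, and Kcnk5, one of the most abundant of these genes, which did not pass the test. Each run is the 250 bases before the start of the gene as the tables place it, read 5′ to 3′ along the strand of the gene from the mm9 genome, with every CG in capitals. CG reads the same on both strands.
Kcnh1: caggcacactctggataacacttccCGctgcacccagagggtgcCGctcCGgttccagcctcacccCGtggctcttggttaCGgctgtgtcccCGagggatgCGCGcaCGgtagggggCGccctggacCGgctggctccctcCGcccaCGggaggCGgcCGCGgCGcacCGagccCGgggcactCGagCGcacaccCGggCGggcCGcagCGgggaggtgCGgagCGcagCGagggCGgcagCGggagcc
Kcnk5: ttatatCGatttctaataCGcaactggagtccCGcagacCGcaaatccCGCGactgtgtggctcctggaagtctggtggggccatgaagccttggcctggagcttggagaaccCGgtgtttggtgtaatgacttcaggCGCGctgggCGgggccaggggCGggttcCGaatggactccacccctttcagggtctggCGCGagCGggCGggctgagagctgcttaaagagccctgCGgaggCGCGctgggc
The Kcnh1 run lies at chr1:194014504-194014753 on the plus strand and holds 30 CG. The Kcnk5 run lies at chr14:21001005-21001254 on the minus strand and holds 19. Over the 20944 genes with a start site the median was 10 CG in such a run, the quartiles were 3 and 20, and 93.4% held at least 1. Both promoters were above that median, though Kcnh1 was called and Kcnk5 was not. Kcnh1 met the requirement for testing, given below, only through its untreated samples, which limits its call and this contrast. Over the 12214 tested genes with a start site the median was 16 and the quartiles were 10 and 23. Kcnk5 lay between those quartiles and Kcnh1 above them. These counts describe sequence and were not compared with binding of KDM2B, which was not analysed here.

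Most potassium channel genes were at low levels in these cells. Of the 94, 42 had a mean below 0.1 FPKM over the 6 samples, 25 had a mean from 0.1 to below 0.5, 14 reached a mean of 1 and 2 reached 5. Kcna10 and Kcnv2 were listed at 0 in all 6 samples. At least 0.5 FPKM in 3 of the 6 samples was required for testing, which 27 of the 94 met, among 12964 genes tested, and 67 did not. Kcnh1 was the 1 gene that met this requirement only through the untreated samples. A gene that did so had to differ, and its call below is given with that limit.

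**Figure D1:**
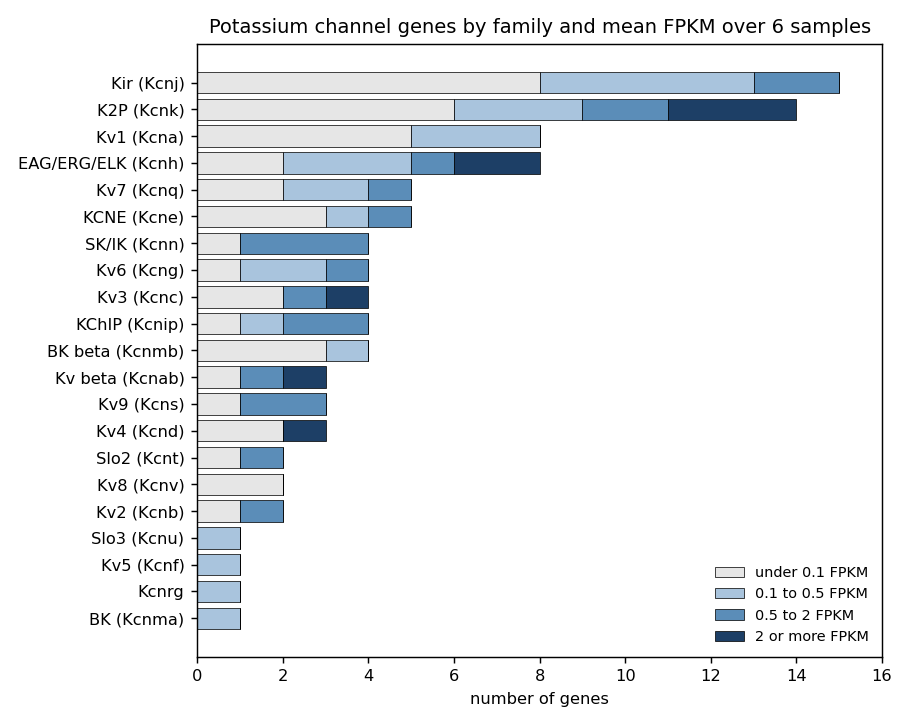
Number of potassium channel genes in each family, with bar segments for the mean FPKM over the 6 samples. The K2P family has 3 genes at 2 FPKM or more and the EAG, ERG and ELK family has 2, while none of the 15 inward rectifier genes reached that level.

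The most abundant transcripts were those of leak channels. Kcnk1, a weakly rectifying K2P channel, was at 15.5, 22.8 and 9.06 FPKM in untreated replicates 1, 2 and 3 and at 15.6, 22.7 and 11.8 FPKM in tamoxifen replicates 1, 2 and 3. Kcnk5, a K2P channel opened by alkaline pH, was at 8.93, 17.6 and 7.74 FPKM in the untreated and at 10.6, 18.7 and 9.48 FPKM in the tamoxifen samples. Both genes were highest in replicate 2 of each group, and their groups overlapped. Together with Kcnk6 they made up 36.4% to 55% of the summed FPKM of all 94 genes in a sample. Among the other genes named here, the order by mean FPKM was Kcnk6 (4.48), Kcnh2 (3.12), Kcnh3 (2.67), Kcnd1 (2.35) and Kcnab3 (2.09), and these neighbours in the order did not differ beyond the spread over samples. FPKM is a level per length, so levels of different genes can be set side by side.

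**Figure D2:**
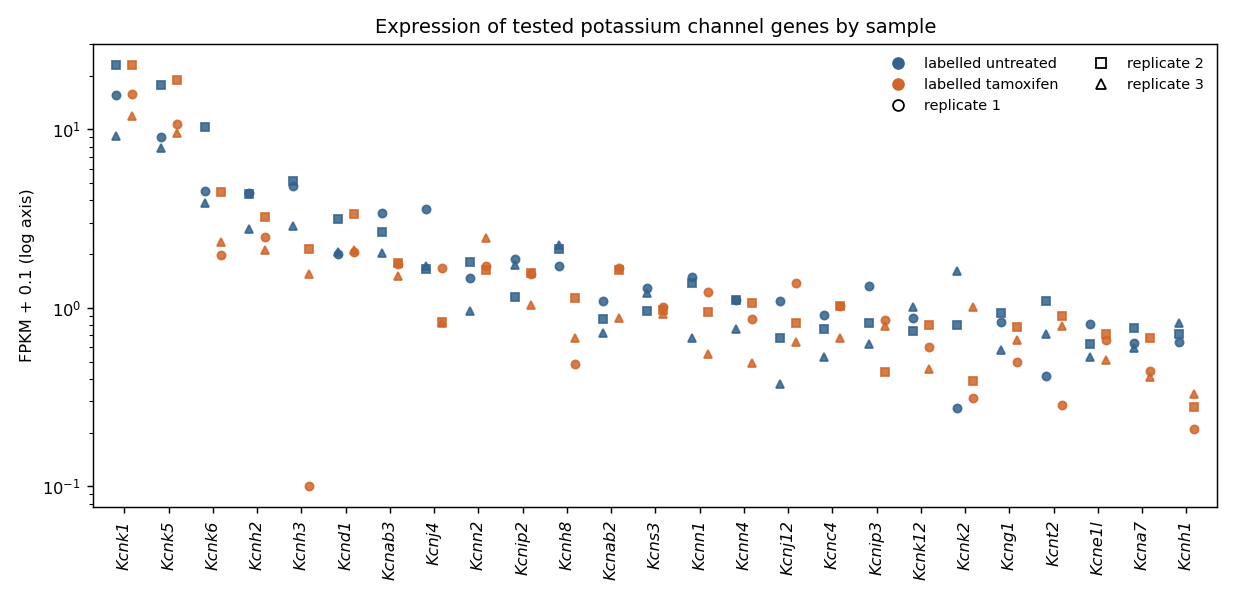
FPKM plus 0.1 on a log axis for 25 of the 27 tested potassium channel genes in each of the 6 samples, ordered by their mean, with colour for the group and marker shape for the replicate number. Kcnk1 and Kcnk5 lie above all others in most samples, and the lowest point is Kcnh3 in tamoxifen replicate 1, listed at 0.

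Differences were tested with limma on log2(FPKM + 0.1), with Benjamini-Hochberg adjustment over all 12964 genes, first by group alone and then with the replicate number as a block. Values are the tamoxifen minus the untreated group, and fold changes on this scale understate those of low genes. By group alone, limma called 0 of the 27 genes at an adjusted p under 0.05, with a smallest adjusted p of 0.429. At an unadjusted p under 0.05 were 6 of the 27, as were 4.82% of all genes. Over all genes 0.0231% were called higher and 0.00771% lower in that fit. With the replicate block, which compares samples of the same number, 6 of the 27 were called lower and 0 higher, and 9 were at an unadjusted p under 0.05, as were 30.05% of all genes. Those 6, of which Kcnh1 met the requirement for testing only through its untreated samples, are 22.2% of the 27. Of all genes tested 6.33% were called lower and 4.5% higher. Over all genes these were 820 lower and 583 higher, against 355 and 468 after scaling to TPM and 1212 and 426 after leaving out loci under 300 bp and then scaling, with 5 and 7 potassium channel genes lower and 0 higher. Without replicate number 2, the blocked fit called 0 of the 27 genes and 87 genes in all.

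The genes that were lower with the block included Kcnk6, Kcnh8, Kcnj4 and Kcnh1, which encode pore-forming subunits, and Kcnab3, which encodes an auxiliary subunit. Across the 27 genes the median log2 difference was −0.35 with a range of −2.58 to 0.60, beside a median of −0.02 over all genes tested. Of the 27, 19 were below 0 and 8 above. In all 3 replicate numbers 11 of the 27 were lower and 5 higher, where 28.3% and 24.8% of all genes were. The median was −0.28 for the 19 with a mean under 2 FPKM, beside −0.13 for all genes at that level, and −0.61 for the 8 at 2 FPKM or more, beside −0.01. Each level held 3 of the 6 calls, and 6.91% of all genes under 2 FPKM and 6.19% of those above were called lower.

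**Figure D3:**
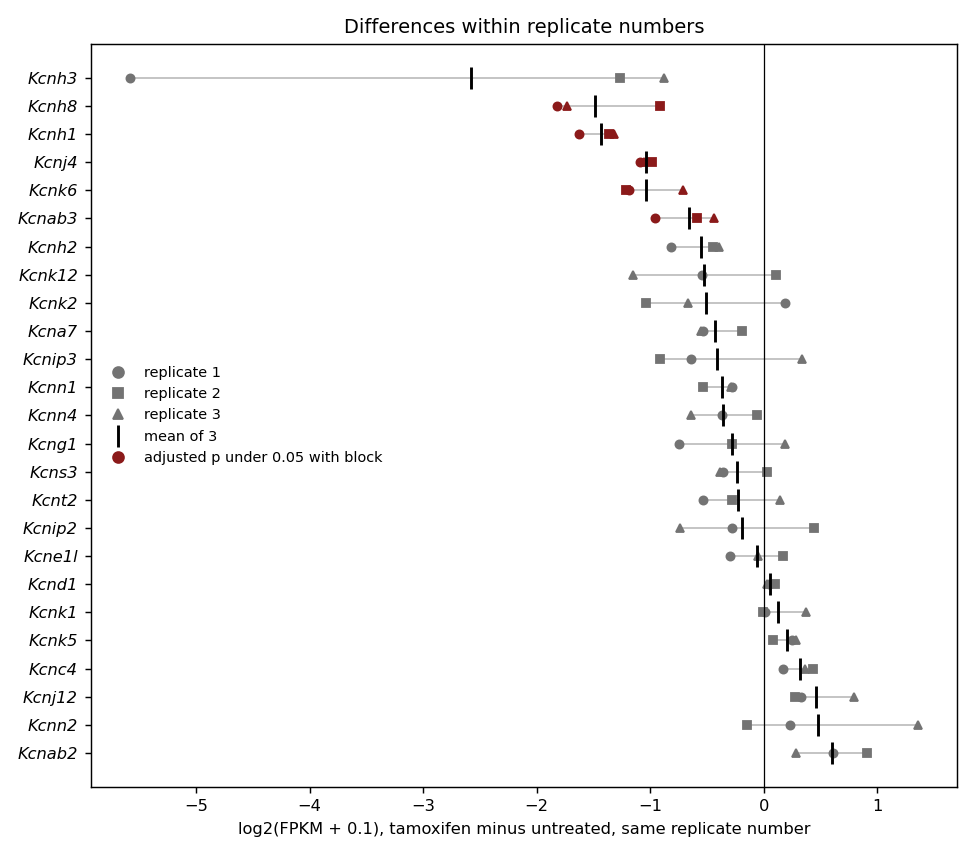
Difference in log2(FPKM + 0.1) between the tamoxifen and the untreated sample of the same replicate number for 25 of the 27 tested genes, with a bar for the mean of 3. The 5 genes in red had adjusted p-values under 0.05 in limma with the block, and all 15 of their points lie below 0.

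Among the K2P genes, Kcnk6 alone of the 5 tested was called. Kcnk6 encodes a leak channel subunit of the same branch as Kcnk1 and spans chr7:30006947-30017541 on the minus strand. It was at 4.42, 10.2 and 3.75 FPKM in the untreated samples and at 1.89, 4.34 and 2.25 FPKM in the tamoxifen samples. Each tamoxifen sample was below the untreated sample of its number, but the groups overlapped because replicate 2 was high in both. The log2 difference was −1.04, with a standard error of 0.44 and an adjusted p of 0.995 in limma by group and a standard error of 0.15 and an adjusted p of 0.009 with the block. For Kcnk1 the difference was 0.13 and for Kcnk5 it was 0.21, with blocked adjusted p-values of 0.49 and 0.23 in limma. Kcnk12 and Kcnk2, the latter a mechanically gated leak channel, had means of 0.648 and 0.632 FPKM, differences of −0.53 and −0.51 and blocked adjusted p-values of 0.26 and 0.30. The other 9 K2P genes were not tested and reached at most 0.508 FPKM.

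**Figure D4:**
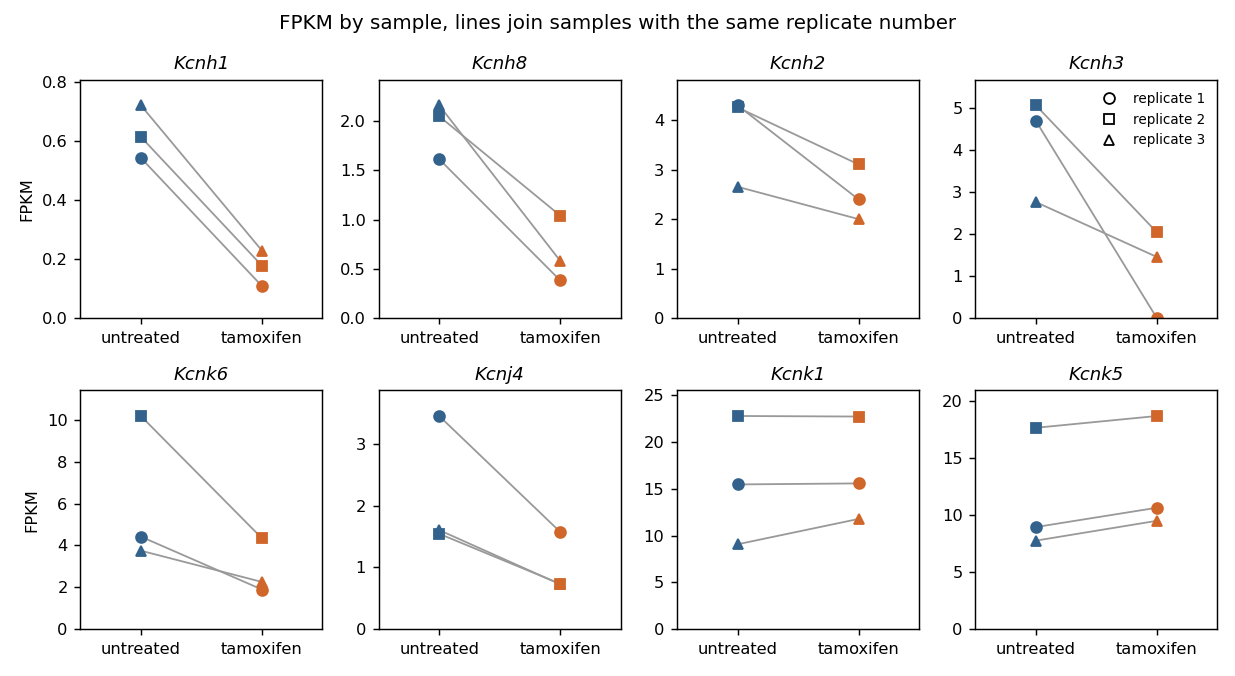
FPKM of 8 potassium channel genes in each sample, with a line joining the untreated and the tamoxifen sample of one replicate number and each vertical axis starting at 0. The untreated points of Kcnh1, Kcnh8 and Kcnh3 all lie above the tamoxifen points, and Kcnh1 was tested only through its untreated samples. Those of Kcnk6 do so only within a number, and Kcnk1 and Kcnk5 show lines that are nearly flat or rise.

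The Kcnh genes, which encode the EAG, ERG and ELK voltage-gated channels, had 8 genes in the tables and 4 tested, and 2 of the 4, Kcnh1 and Kcnh8, were called lower with the block. Summed over the 8 genes, the family was at 11.99, 12.9 and 8.88 FPKM in the untreated and at 3.36, 6.98 and 4.95 FPKM in the tamoxifen samples. The groups did not overlap, and neither did they for the Kcng and Kcns families or the BK channel gene. The BK gene was not tested, and its lowest untreated value was 0.216 FPKM against a highest tamoxifen value of 0.212 FPKM. Kcng1 and Kcns3, the tested genes of the Kcng and Kcns families, each overlapped. No share over all genes is available for family sums. Of single genes tested, 5.41% had all 3 untreated samples above. In tamoxifen replicate 1 the Kcnh sum includes Kcnh3 listed at 0. Kcnh1, the EAG channel, spans chr1:194014754-194334040 on the plus strand. It was at 0.543, 0.614 and 0.721 FPKM in the untreated and at 0.109, 0.178 and 0.229 FPKM in the tamoxifen samples, an estimated 15 to 104 fragments per sample. The lowest untreated value was above the highest tamoxifen value. Kcnh1 was tested only through its untreated samples, so it could not overlap. That limits its call and its place among the 2 called. Its log2 difference was −1.44 with a standard error of 0.38, and its adjusted p in limma was 0.479 by group and 0.022 with the block.

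Kcnh8, an ELK channel, was at 1.61, 2.05 and 2.16 FPKM in the untreated and at 0.383, 1.04 and 0.581 FPKM in the tamoxifen samples, again with no overlap. The log2 difference was −1.49 with a standard error of 0.38, and the adjusted p in limma was 0.429 by group and 0.011 with the block. The value is the sum of a pair of rows of that name, at chr17:52742034-53044544 and chr17:53092466-53121330, which the mm9 annotation places on opposite strands. Taken alone the rows differed by −1.18 and −1.65 on the log2 scale.

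Kcnh3, the other ELK gene tested, had the lowest log2 difference of the 27, at −2.58, but did not pass, with an adjusted p in limma of 0.869 by group and 0.075 with the block. It was at 4.69, 5.06 and 2.76 FPKM in the untreated samples and at 0, 2.04 and 1.45 FPKM in the tamoxifen samples. Tamoxifen replicate 1 was listed at exactly 0 while the others were well above it, so the size of the difference rests on that sample, and within replicate numbers 2 and 3 it was −1.27 and −0.88. Without replicate number 1 the difference was −1.08 with a blocked adjusted p of 0.0011 in limma, and without number 3 it was −3.43 with 0.02. The Kcnh3 row ends where that of Mcrs1 begins, and Mcrs1 was at 41.2 FPKM in tamoxifen replicate 1, its highest value, and at 18.2 to 30.6 FPKM in the others. Whether fragments were divided between these genes was not tested. Kcnh2, the ERG channel that carries a repolarising current of heart muscle, was at 4.30, 4.26 and 2.66 FPKM in the untreated and at 2.40, 3.11 and 2.00 FPKM in the tamoxifen samples. It was lower within every number, by −0.55 on the log2 scale, with a blocked adjusted p of 0.055. The other 4 Kcnh genes were not tested and reached at most 0.647 FPKM.

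Of the 15 inward rectifiers, 2 were tested. Kcnj4, a strong inward rectifier of brain and muscle at chr15:79314144-79335671 on the minus strand, was at 3.46, 1.55 and 1.61 FPKM in the untreated and at 1.58, 0.733 and 0.725 FPKM in the tamoxifen samples. The values overlapped because replicate 1 was high in both groups, while within the numbers the differences were close to each other, from −1.09 to −0.98. The log2 difference was −1.04, with an adjusted p in limma of 0.948 by group and 0.012 with the block. Kcnj12, of the same strongly rectifying class, was at 0.996, 0.576 and 0.273 FPKM in the untreated and at 1.28, 0.717 and 0.546 FPKM in the tamoxifen samples. It was higher in all 3 numbers, by 0.47 on the log2 scale, and did not pass with a blocked adjusted p of 0.23.

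Kcnc4, a channel subunit of rapidly repolarising neurons, was at 0.814, 0.660 and 0.428 FPKM in the untreated and at 0.928, 0.927 and 0.581 FPKM in the tamoxifen samples, a difference of 0.32 with a blocked adjusted p of 0.35. Kcnd1, an A-type channel, had nearly equal values in the groups, from 1.89 to 3.04 FPKM untreated and from 1.96 to 3.26 FPKM with tamoxifen. It did not pass, with a log2 difference of 0.06 and a blocked adjusted p of 0.81.

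The calcium-activated channels gave no calls among the 3 of 4 Kcnn genes tested. Kcnn2, a small-conductance channel whose row overlaps that of A330093E20Rik, was at 1.36, 1.70 and 0.863 FPKM in the untreated and at 1.62, 1.53 and 2.37 FPKM in the tamoxifen samples. Its log2 difference of 0.48 had a blocked adjusted p of 0.28, and tamoxifen replicate 3 held the highest value. Kcnn1 and the intermediate-conductance channel Kcnn4 had differences of −0.37 and −0.36, lower in all 3 numbers, with blocked adjusted p-values of 0.26 and 0.32.

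Of 17 auxiliary subunits and regulators 5 were tested, and 1 of these was called. Kcnab3 and Kcnab2 encode cytoplasmic beta subunits of Shaker-type channels. Kcnab3 was at 3.30, 2.57 and 1.94 FPKM in the untreated and at 1.66, 1.67 and 1.402 FPKM in the tamoxifen samples, with no overlap. Its difference was −0.66, with an adjusted p in limma of 0.999 by group and 0.047 with the block, and it passed in 5 of 10 alternative blocked fits that kept all samples. Kcnab2 was at 0.993, 0.766 and 0.625 FPKM in the untreated and at 1.57, 1.53 and 0.781 FPKM in the tamoxifen samples. It had the highest log2 difference of the 27, at 0.60, and did not pass with a blocked adjusted p of 0.11. The calcium-binding Kcnip2, a partner of Kcnd channels, and Kcnip3 had means of 1.39 and 0.709 FPKM and differences of −0.19 and −0.41, with blocked adjusted p-values of 0.63 and 0.38. The silent subunit Kcns3, which acts only together with another pore-forming subunit, had a mean of 0.961 FPKM and a difference of −0.24, with a blocked adjusted p of 0.47. Kcna7, Kcne1l, Kcng1 and Kcnt2, which were also tested, had means of 0.488 to 0.614 FPKM and differences of −0.43 to −0.06, and none of these passed.

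**Figure D5:**
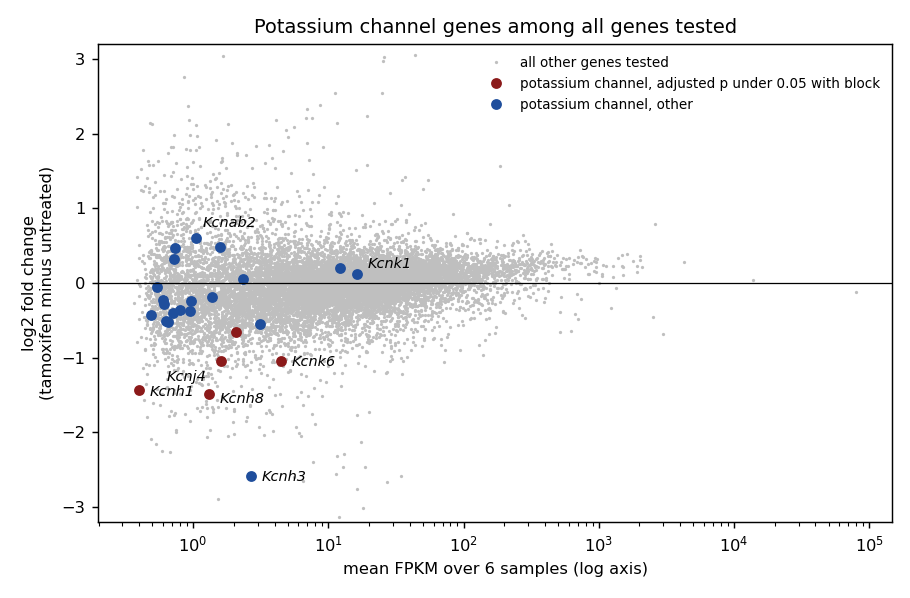
Log2 fold change, tamoxifen minus untreated, against the mean FPKM on a log axis for all 12964 genes tested, with 25 potassium channel genes in colour and 32 other genes outside the plotted range. The 5 genes in red, called with the block, lie at −1.49 to −0.66, among many other genes of the same level.

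Over samples rather than numbers, 4 of the 27 tested genes had all 3 untreated samples above all 3 tamoxifen samples, namely Kcnh1, Kcnh3, Kcnh8 and Kcnab3, where 5.41% of all genes tested did. Kcnh1 met the requirement for testing only through its untreated samples, so it could not overlap, and its place among the 4 follows from that. None had all 3 tamoxifen samples above, where 3.09% of all genes did. Among the 67 untested genes, 8 had the untreated samples above and 3 the tamoxifen samples, where 5.34% and 5.15% of all genes under the requirement and above 0 did. The 8 included Kcns1 at 0.470, 1.11 and 0.518 FPKM against 0.186, 0.402 and 0.337 FPKM, and the A-type channel Kcnd2 at 0.068, 0.151 and 0.144 FPKM against 0 in all 3 tamoxifen samples, both named after their values were seen. An estimated 10 to 70 fragments per sample lie behind Kcns1 and at most 18 behind Kcnd2, and no fold is given.

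The promoters of the 94 genes were described by the CpG content within 500 bp on either side of the start. A promoter counted as CpG-rich where the observed over expected CpG ratio was at least 0.6 and GC at least 55%. This held for 40 of the 94 genes, or 42.6%, beside 41.3% of all genes with a start site. Of the 27 tested genes 63.0% were CpG-rich, beside 61.7% of all genes tested. Of the 67 not tested 34.3% were, beside 18.1% of all genes above 0 and not tested. All 6 genes called lower with the block were CpG-rich in this window, as were Kcnk1, Kcnk5, Kcnh2 and Kcnh3, which were not called. In the 250 bases upstream alone, the share was 35.1% of the 94, beside 38.3% of all genes, and 44.4% of the 27 tested, beside 56.5% of all genes tested. It was 66.7% of the 6.

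Partners of these channels and other carriers of potassium showed 1 call in each direction among 17 tested of 28 with the block. The gene called higher was tested only through its tamoxifen samples. Slc12a4, a potassium-chloride cotransporter, was at 24.7, 41.7 and 18.8 FPKM in the untreated and at 14.5, 24.3 and 11.8 FPKM in the tamoxifen samples, a log2 difference of −0.74 with a blocked adjusted p of 0.0056 in limma. The median difference of the 17 was −0.18, and it was 0.03 without untreated replicate 2 and 0.01 without tamoxifen replicate 3. The 40 sodium and calcium channel genes were those with names beginning with Cacn or with Scn and a number. Of these, 15 were tested, with a median of −0.59. With the block 6 of the 15 were called lower and 0 higher, where 6.33% and 4.5% of all genes tested were. The 6 included the auxiliary subunits or relatives of them Cacna2d1, Cacnb3, Cacng6, Cacng7 and Scn3b. Scn3b, a sodium channel beta subunit, had the lowest difference of these genes, at −1.25, with 1.13, 2.17 and 2.32 FPKM untreated against 0.507, 0.756 and 0.869 FPKM. Summed over the 40 genes the untreated samples were at 74.3 to 92.2 FPKM and the tamoxifen samples at 53.9 to 58.9 FPKM. Whether the potassium channel genes differ from these families was not tested.

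Some markers of neural cells were also lower in the tamoxifen samples. Of the 10 listed, 6 were tested and 4 were called lower with the block, namely Pax6 (−1.73), Sox1 (−0.97), Nes (−0.55) and Neurod1 (−1.89), with blocked adjusted p-values in limma of 0.0025 to 0.026. The whole list summed to 81.4 to 105.1 FPKM in the untreated and to 75.6 to 83.5 FPKM in the tamoxifen samples, and none was at 0 in all samples. Of 8 cardiac and muscle markers, 6 were tested and 2 were called higher, Actc1 (2.12) and Myl7 (1.29), of which Actc1 was tested only through its tamoxifen samples, and the list summed to 3.7 to 5.1 FPKM untreated and 5.6 to 10.1 FPKM with tamoxifen. None of the 10 ESC markers was called. The part of these markers in the differences of the potassium channel genes was not tested.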

How the data were processed

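RNA-seq libraries of paired 51-bp reads were made from 3 untreated and 3 tamoxifen-treated samples. The authors aligned reads to mm9 with TopHat2 and obtained values with Cuffdiff 2.1.1 on refGene models. The deposited tables hold 1 FPKM value per gene row with its confidence interval and status, and no counts, so the depth was estimated only from single-fragment steps. The ChIP-seq samples of the series were not analysed here.

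Rows were summed by gene name, names with a status other than OK in any sample were left out (189, none a potassium channel gene), and genes with at least 0.5 FPKM in 3 of 6 samples were fitted with limma 3.58.1 in R 4.3.3 on log2(FPKM + 0.1) with a mean-variance trend, by group and, as an alternative, with a block for the replicate number. Samples with the same number in their titles were alike across groups, with deviations from the group means correlating at 0.552, 0.613 and 0.505. For different numbers the correlations were −0.384 to −0.103. Deviations within a group cancel, so these negative values are not independent of the positive ones. The sample labels do not say what the number stands for. The authors describe biological triplicates, but nothing states separate cultures, so p-values measure the spread between these samples. Sample titles gave the groups. The FPKM sums of the samples ranged from 549379 to 1045707 because FPKM is not scaled to a common total. The submitters give the dose as 800 nM in the sample labels and in another unit in the series text. The plan was to name genes called in either fit, among the 20 highest by mean FPKM, or among the 5 highest or 5 lowest differences. It also covered tested genes at 0 in 1 group. Outside this rule, the tested Kcnk12, Kcnk2, Kcna7, Kcne1l, Kcng1 and Kcnt2 and the untested Kcna10, Kcnv2, Kcns1 and Kcnd2 were named as well. The potassium channel genes, the lists and the markers were chosen with earlier results of these data known. Some genes and a sequence that met this rule are not reported here. The fit was tested on simulated data. Promoter sequence came from the mm9 genome (NCBIM37). Alternatives were other pseudocounts, filters, scalings, row handling, a fit without trend and each replicate left out.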

Additional observations from a re-analysis of the deposited data

How the results depend on the processing

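By group alone, 0 potassium channel genes were called under every alternative except the replicate block, which called 6 lower. With the block the count was 4 to 8 under the other alternatives and 0 to 6 with a replicate number left out, 0 arising without number 2. The replicate block raised calls over all genes from 4 to 1403, and pseudocount 1 gave 2, at least 1 FPKM in all samples 0, and leaving out a replicate 2 to 10. Blocked calls over all genes were 58.4% lower, 43.1% after scaling to TPM (which moved the median of all genes by 0.10, and where limma took the variance from the trend alone) and 74.0% after leaving out loci under 300 bp and scaling, and in every one of these no potassium channel gene was called higher.

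Kcnk6, Kcnh8, Kcnj4 and Kcnh1 kept their blocked call in all alternatives that kept all samples and tested them, 10 for Kcnk6 and 9 for the others, which fell short of 1 FPKM in a sample (highest adjusted p 0.045, 0.049, 0.049 and 0.049) and Kcnab3 in 5 of 10 (0.0091 to 0.27). Without replicate number 2 their adjusted p-values were 0.061 to 0.22, and Kcnab3 was also lost without number 1 (0.084) and 3 (0.065). Kcnh2 passed with the block at pseudocount 1 (0.045), with short loci left out (0.038) and at 1 FPKM in all samples (0.017), and Kcnh3 at pseudocount 1 (0.02), after scaling to TPM (8.4e-17) and without number 1 or 3.

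The median difference of the tested genes (−0.35) was −0.16 at pseudocount 1, −0.47 with short loci left out, −0.19 with no filter, −0.55 at 1 FPKM in all samples and −0.42 to −0.22 with a replicate left out. That of the partners was −0.40 to 0.03 with a replicate left out, changing sign without untreated replicate 2 (0.03) and without tamoxifen replicate 3 (0.01), and that of Scn and Cacn genes was −0.12 with no filter. Of 565 alternative values of named genes 11 changed sign, all in 4 uncalled genes. Kcnd1 was −0.02 with short loci left out, with and without the block. With 1 sample left out the values were −0.17 to 0.27 for Kcnd1, −0.41 to 0.00 for Kcnip2, −0.22 to 0.44 for Kcnk1 and −0.09 to 0.56 for Kcnk5, and with a replicate number left out of the blocked fit −0.51 to 0.08 for Kcnip2. The cause was not tested. The depth limits statements on the 67 untested genes.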
